A study of Drosophila melanogaster with 8 samples.

Results

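The neuronal and synaptic genes described here are a list of 38 genes that mark neurons and glia, build the machinery of transmitter release, make and carry transmitters, or process neuropeptides. They were matched by symbol or gene identifier on an oligonucleotide array that covered 13304 genes of the fruit fly, and 37 of the 38 had at least 1 oligonucleotide. The name nrv fitted no gene by itself, because the array holds nrv1, nrv2 and nrv3, and these were not counted. The 37 genes had 52 oligonucleotides, with several for 11 genes and 1 for 26.

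RNA was taken from larvae of the third instar of Drosophila melanogaster, all of the WT strain given as yw; Canton S and raised at 25 °C. In fly nomenclature y and w name the body and eye colour mutations yellow and white, and every group carries the same strain name. No transgene or treatment was named. The dorsal vessel, the tubular heart of the larva, was dissected by hand. On 4 arrays the posterior heart was set against the anterior aorta, cut apart at the valve between them, from pools of 10 individuals. The remaining 4 arrays set the undivided dorsal vessel against sibling whole larvae, from pools of 5 individuals. Each array is a biological replicate with 2 dye-labelled RNAs, and the dyes were switched on replicates 3 and 4 of each comparison. About 100 ng of total RNA was amplified over 2 rounds, and the RNAs are mixtures of all cells in a pool, so fewer cells of a kind and less RNA per cell cannot be told apart.

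At a synapse, vesicles filled with transmitter dock at an active zone and fuse with the membrane through SNARE proteins when calcium binds synaptotagmin. Neuropeptides take another route: a precursor is cut by a convertase, trimmed by a carboxypeptidase, amidated at its end and released from dense core vesicles. The larval dorsal vessel is a muscular tube whose aorta runs to the brain and the ring gland, where neurosecretory endings lie on its wall, while the whole larva includes the central nervous system.

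Signals were low on all 8 arrays. Gene spots had a median of 1.22 to 2.47 fluorescence units (RFU) by channel, and the detection level, set at the 95th percentile of the negative and empty spots, lay between 1.57 and 3.53 RFU in the 16 channels. RFU values are foreground signals before background correction and normalisation. Statements that groups overlap or not compare these raw values across arrays and dyes, while the tests use ratios within arrays. The share of all genes without overlap was not counted. The replicates of dorsal vessel against whole larva correlated in log2 ratio with r = 0.791 to 0.89 across 6933 genes, which are not independent of each other. Heart over aorta was less even, with r = 0.479 for replicates 1 and 2, 0.472 for replicates 3 and 4 and -0.481 for replicates 1 and 3 across 5884 genes. Markers of midgut, a tissue apart from the dorsal vessel, had median log2 ratios of 3.40, 0.79, -3.96 and -4.64 on heart against aorta replicates 1 to 4, and salivary gland markers 3.65, 2.45, -3.25 and 0.51. The counts of members and the heart and aorta values of Pal2, svr, Fas2, Phm, Ms and Shaw are also given without replicates 1 and 3. That leaves out the pair with r = -0.481, but replicates 2 and 4, which remain, still differed in midgut markers (0.79 and -4.64). Few genes of the whole array passed on so few arrays, so a call lost there does not show that a difference is absent. On 3 arrays (heart against aorta replicate 3, dorsal vessel against whole larva replicates 1 and 2) a print block of 656 spots was read out of place, and of the members only 1 of the oligonucleotides of futsch lay in it.

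A gene counted as detected where the channel of its brightest oligonucleotide exceeded the detection level on at least 2 of 4 arrays. By this count 20 of the 37 neuronal and synaptic genes were detected in some RNA and 17 in none. By RNA, 17 of the 37 were detected in whole larva, 15 in heart, 9 in aorta and 9 in dorsal vessel. Over all genes on the array the shares were 47.7% in whole larva, 40.2% in heart, 39.7% in aorta and 35.1% in dorsal vessel. The members' shares were 45.9%, 40.5%, 24.3% and 24.3% in the same order. Detection on all 4 arrays of all 4 RNAs was reached by 4 members, Syx1A, Fas2, Phm and svr, and 12 members were above the level on 0 arrays of every RNA.

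**Figure D1:**
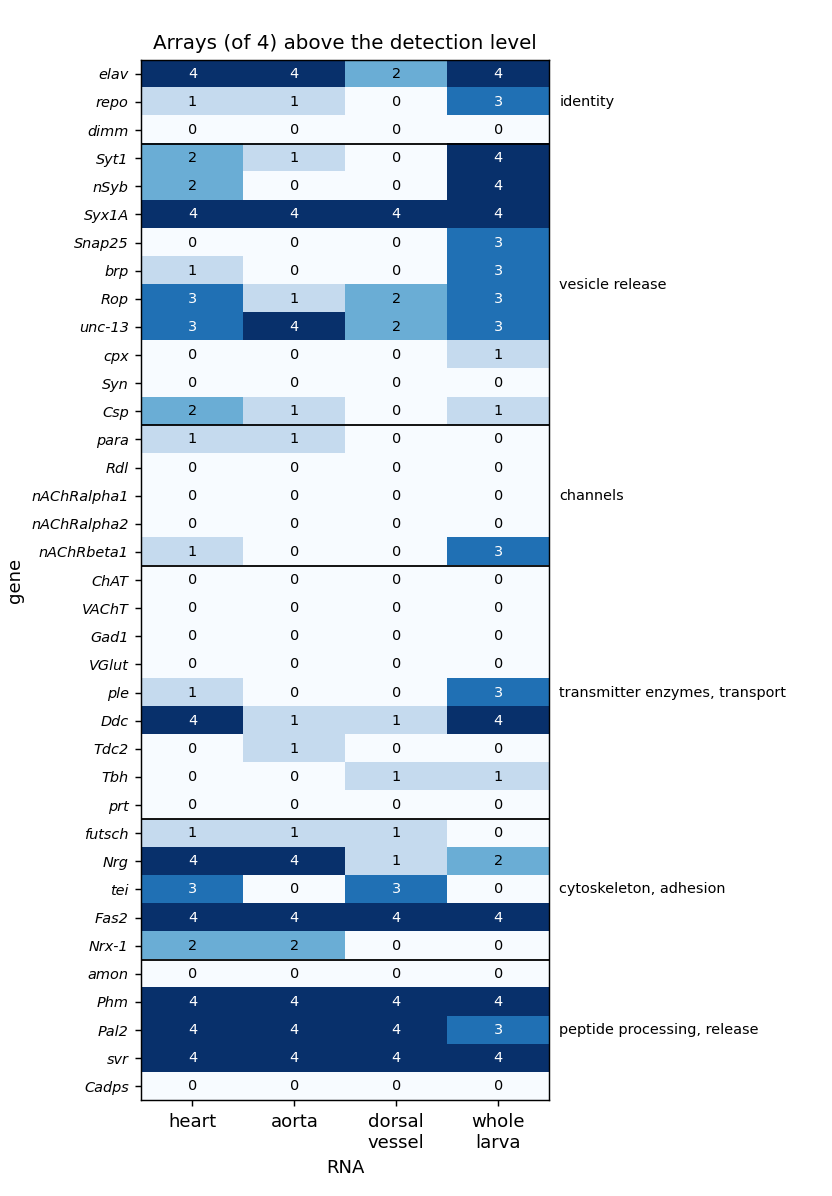
Number of arrays, of 4, on which each of the 37 genes (rows, grouped by role) was above the detection level in heart, aorta, dorsal vessel and whole larva RNA (columns). The vesicle release genes Syt1, nSyb, Snap25 and brp reach 3 or 4 arrays in whole larva and 0 in dorsal vessel, while Phm, Pal2 and svr are detected in all 4 RNAs.

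By their brightest oligonucleotide, 17 members were above detection on at most 1 array of each RNA and were not tested. They include the genes that define the transmitter types of neurons: ChAT, of choline acetyltransferase, VAChT, the vesicular acetylcholine transporter, Gad1, of glutamate decarboxylase, VGlut, the vesicular glutamate transporter, and Tdc2 and Tbh, of tyramine and octopamine synthesis. The others were the sodium channel para, the GABA receptor Rdl, the acetylcholine receptor subunits nAChRalpha1 and nAChRalpha2, the complexin cpx, the vesicle protein Syn, the microtubule-associated futsch, the vesicular transporter gene prt, the convertase amon, the dense core release factor Cadps and dimm, a transcription factor of peptidergic cells. Their mean signals ran from 1.14 to 2.59 RFU, or 0.553 to 1.11 times the detection level. Their log2 ratios lay between -0.26 and 0.14 for heart over aorta and between -0.26 and 0.18 for dorsal vessel over whole larva, where background holds ratios near 0, so they do not show that these RNAs were equal. The highest of these means was that of futsch in heart, which rested on the misread block, where replicate 3 gave 5.86 RFU. With the block moved back, that oligonucleotide was above detection on 0 arrays of any RNA. Rdl had a second oligonucleotide, above detection in whole larva on 2 arrays, with a log2 ratio of dorsal vessel over whole larva of -0.27 that did not pass the test (limma adjusted p = 0.0521).

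The comparison of dorsal vessel with whole larva asks which of these genes the dissected organ holds more or less of than the animal. Ratios are log2 of dorsal vessel over whole larva, n = 4 arrays, tested in limma with adjustment over all 6933 genes tested. Of 18 members tested, 9 were higher in whole larva, 4 were higher in dorsal vessel and 5 did not pass at an adjusted p of 0.05. Of all genes tested, 35.9% passed, 21.7% toward whole larva and 14.1% toward dorsal vessel. The median of the 18 was -0.33, beside -0.06 over all genes. A gene entered the test if it was detected in either RNA, and 9 of the 18 entered through whole larva alone, so their direction was largely set by that entry. Among the 8 detected in both RNAs, 3 were higher in dorsal vessel, 1 was higher in whole larva and 4 did not pass.

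**Figure D2:**
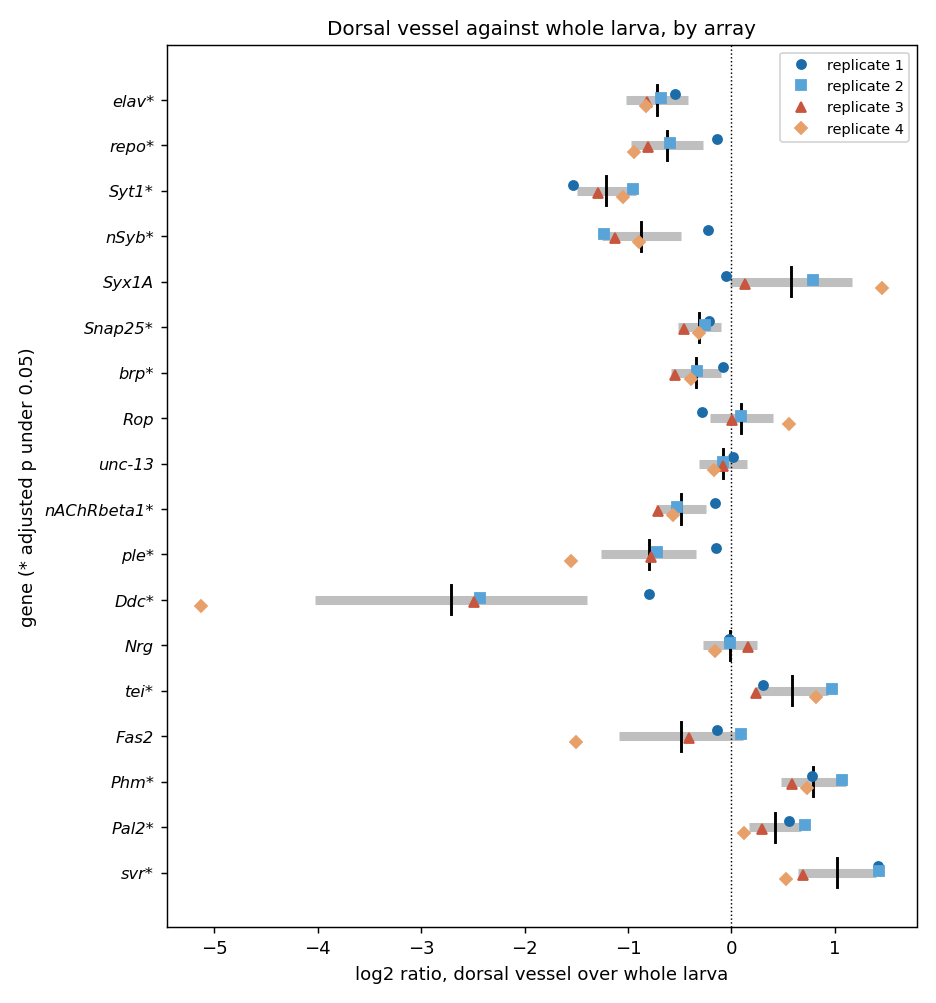
Log2 ratio of dorsal vessel over whole larva on each of 4 arrays (points) for the 18 members tested, with the fitted value (black line) and its 95% confidence interval (grey bar); a star marks an adjusted p under 0.05. Ddc spreads widest, from -0.80 to -5.13, and Phm, Pal2 and svr lie above 0 on every array.

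Of 3 identity genes of the nervous system, elav and repo were lower in the dorsal vessel and dimm was not tested. The pan-neuronal RNA-binding protein gene elav gave 2.72, 3.67, 2.68 and 1.27 RFU in dorsal vessel and 4.59, 5.85, 5.80 and 6.70 RFU in whole larva on replicates 1 to 4. Every whole larva value was above every dorsal vessel value, and elav was above detection in dorsal vessel on 2 arrays. Its log2 ratios were -0.55, -0.68, -0.82 and -0.83, with a fitted value of -0.72 (SE 0.13, adjusted p = 0.00598), or 1.65-fold higher in whole larva. With median centring in place of loess elav missed the test (adjusted p = 0.0677). On the heart against aorta arrays, mean elav signals were 2.21 times the detection level in heart and 2.47 times in aorta. The means were 1.02 times in dorsal vessel and 2.24 times in whole larva, and the difference between the sets of arrays was not tested. The glial transcription factor gene repo was above detection in whole larva on 3 arrays and in dorsal vessel on 0. Its log2 ratios of -0.14, -0.59, -0.81 and -0.94 were all negative, and it was 1.54-fold higher in whole larva (log2 ratio -0.62, SE 0.15, adjusted p = 0.0199). The call on repo was lost without replicate 2, 3 or 4 (adjusted p = 0.0743, 0.0833 and 0.0858).

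Among 10 genes of vesicle fusion and release, 7 were tested, of which 4 were higher in whole larva, 0 were higher in dorsal vessel and 3 did not pass. Over all genes tested, 21.7% passed toward whole larva and 14.1% toward dorsal vessel. The 4 entered the test through whole larva alone, which largely set their direction, and the 3 were detected in both RNAs. The calcium sensor gene Syt1 had the smallest adjusted p of the members. It read 2.72, 1.40, 0.982 and 0.722 RFU in dorsal vessel, below detection on every array, and 5.21, 3.95, 5.29 and 5.85 RFU in whole larva, above detection on every array. The log2 ratios were -1.53, -0.95, -1.29 and -1.05, and Syt1 was 2.31-fold higher in whole larva (log2 ratio -1.21, SE 0.12, adjusted p = 0.00051). It passed under all 17 alternatives of processing and arrays, with log2 ratios from -1.79 with the deposited table to -0.10 with an offset of 50 RFU.

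The neuronal synaptobrevin gene nSyb, the SNARE protein of the vesicle, gave 2.19, 1.16, 1.04 and 0.651 RFU in dorsal vessel and 4.26, 4.82, 4.84 and 4.50 RFU in whole larva. It was above detection in dorsal vessel on 0 arrays and in whole larva on 4. Its log2 ratios were -0.23, -1.23, -1.13 and -0.89, and it was 1.83-fold higher in whole larva (log2 ratio -0.87, SE 0.16, adjusted p = 0.00765), a call kept under all 17 alternatives. A second nSyb oligonucleotide was above detection on at most 1 array of each RNA and was not tested.

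Snap25, of a SNARE protein of the plasma membrane, and brp, of the active zone scaffold Bruchpilot, were near the detection level. Snap25 lay at 1.96, 2.16, 1.76 and 0.629 RFU in dorsal vessel, below detection on every array. In whole larva it read 2.66, 2.72, 2.92 and 2.79 RFU, above detection on 3 arrays. It was 1.24-fold higher in whole larva (log2 ratio -0.31, SE 0.09, adjusted p = 0.0343). For brp the brightest of 4 oligonucleotides was 1.27-fold higher in whole larva (log2 ratio -0.34, SE 0.10, adjusted p = 0.0383), with log2 ratios of -0.08, -0.33, -0.55 and -0.39 on the arrays, all negative. The other 3 brp oligonucleotides were not tested, and over the mean of all 4 the ratio was -0.05 (adjusted p = 0.654). On 3 arrays the calls did not stand: Snap25 lost its call whichever single replicate was left out (adjusted p = 0.0654 to 0.126) and brp without replicate 2, 3 or 4 (adjusted p = 0.131, 0.145 and 0.101).

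The other release genes tested did not pass. Syx1A, of the membrane SNARE syntaxin, which many secreting cells also use, was bright in both RNAs, at 13.1, 25.1, 20.7 and 17.8 RFU in dorsal vessel and 11.2, 12.7, 14.4 and 9.35 RFU in whole larva. The groups overlapped at the dorsal vessel value of replicate 1. Its log2 ratios were -0.05, 0.79, 0.13 and 1.46 (fitted 0.58, 95% confidence interval -0.01 to 1.17, adjusted p = 0.106). It passed toward dorsal vessel with median centring (adjusted p = 0.0249). Rop, of the syntaxin partner of the Munc18 family, had log2 ratios of -0.28, 0.09, 0.01 and 0.56 (fitted 0.09, interval -0.21 to 0.40, adjusted p = 0.577). The vesicle priming gene unc-13 had 0.02, -0.08, -0.08 and -0.17 (fitted -0.08, interval -0.31 to 0.15, adjusted p = 0.516). Both Rop and unc-13 were above detection in dorsal vessel on 2 arrays. Their mean signals were 1.07 and 1.12 times the detection level in dorsal vessel and 1.01 and 1.27 times in whole larva. So near background, their ratios do not show that the RNAs were equal. Csp, of the vesicle chaperone cysteine string protein, was above detection in whole larva on 1 array and was tested only between heart and aorta.

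Of 5 channel genes, only nAChRbeta1, of a subunit of the nicotinic acetylcholine receptor, was tested here. It gave 2.61, 1.54, 1.22 and 0.689 RFU in dorsal vessel, below detection on every array, and 3.07, 2.61, 3.52 and 3.49 RFU in whole larva. The lowest whole larva value, 2.61 RFU on replicate 2, met the highest of dorsal vessel. Within arrays the log2 ratios were -0.16, -0.53, -0.71 and -0.56, and the gene was 1.41-fold higher in whole larva (log2 ratio -0.49, SE 0.10, adjusted p = 0.0115). A second oligonucleotide was not above detection on any array, the mean of both missed the test (-0.25, adjusted p = 0.0534), and the call was lost without replicate 2 or 3 (adjusted p = 0.0577 and 0.0583).

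The widest difference among the members was in dopamine synthesis, whose enzymes also harden and colour the cuticle in the epidermis. Ddc, of dopa decarboxylase, gave 1.39, 3.25, 1.52 and 1.27 RFU in dorsal vessel and 4.28, 21.3, 14.8 and 131 RFU in whole larva. The whole larva pools themselves spanned 4.28 to 131 RFU, with replicate 4 highest, and none overlapped the dorsal vessel. In dorsal vessel Ddc was above detection on 1 array, so it entered the test through whole larva alone. With log2 ratios of -0.80, -2.43, -2.49 and -5.13, Ddc was 6.56-fold higher in whole larva (log2 ratio -2.71, SE 0.56, adjusted p = 0.0108). Without replicate 4 the difference was 3.76-fold (-1.91, adjusted p = 0.0215), and without replicate 1 it was 9.95-fold (-3.32, adjusted p = 0.00888). With an offset of 50 RFU it missed the test (-0.59, adjusted p = 0.0845). The tyrosine hydroxylase gene ple, of the step before Ddc, was also lowest in whole larva on replicate 1 and highest on replicate 4, at 2.66, 3.38, 3.50 and 8.73 RFU in whole larva and 2.19, 2.47, 0.872 and 0.659 RFU in dorsal vessel. In dorsal vessel ple was above detection on 0 arrays and in whole larva on 3, and it was 1.74-fold higher in whole larva (log2 ratio -0.80, SE 0.20, adjusted p = 0.0204). The call on ple was lost without replicate 2 or 4 (adjusted p = 0.0909 and 0.0898).

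Of 5 genes of the cytoskeleton and adhesion, 3 were tested, of which 1 was higher in dorsal vessel and 2 did not pass. Fas2, of an NCAM-like adhesion protein of axons, was bright in dorsal vessel (6.91, 13.7, 11.8 and 2.68 RFU) and in whole larva (6.15, 11.9, 12.9 and 16.5 RFU), and the groups overlapped. Its log2 ratios were -0.14, 0.09, -0.41 and -1.50 (fitted -0.49, interval -1.09 to 0.11, adjusted p = 0.159). Nrg, of the L1-type protein neuroglian, which also sits at the septate junctions of epithelia, had -0.02, -0.01, 0.16 and -0.16 (fitted -0.01, interval -0.27 to 0.25, adjusted p = 0.964). Nrg was near background here, above detection in dorsal vessel on 1 array and in whole larva on 2. The gene listed as fas, which is now named tei, went the other way. It read 2.73, 4.32, 2.72 and 2.15 RFU in dorsal vessel, above detection on 3 arrays, and 1.49, 1.42, 2.12 and 1.73 RFU in whole larva, above it on 0. The log2 ratios were 0.31, 0.97, 0.24 and 0.82, and tei was 1.5-fold higher in dorsal vessel (log2 ratio 0.59, SE 0.15, adjusted p = 0.023). The call on tei was lost without replicate 2 or 4 (adjusted p = 0.0945 and 0.096) and with median centring (adjusted p = 0.0579). Nrx-1, of the presynaptic adhesion protein neurexin, was above detection on 0 arrays of either RNA.

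Of 5 members that process or release neuropeptides, 3 were tested and were higher in dorsal vessel, each above detection in both RNAs, and amon and Cadps were not tested. Phm and Pal2 encode the hydroxylase and the lyase that together amidate a peptide's end, and svr, the silver gene, encodes a carboxypeptidase that trims basic residues. Other processing genes, outside the members, did not pass: Pal1, of another amidating lyase, had log2 ratios of -0.21, -0.46, -0.08 and -0.81 (fitted -0.39, adjusted p = 0.127), and the furin gene Fur1 a fitted ratio of 0.35 (adjusted p = 0.0896).

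**Figure D3:**
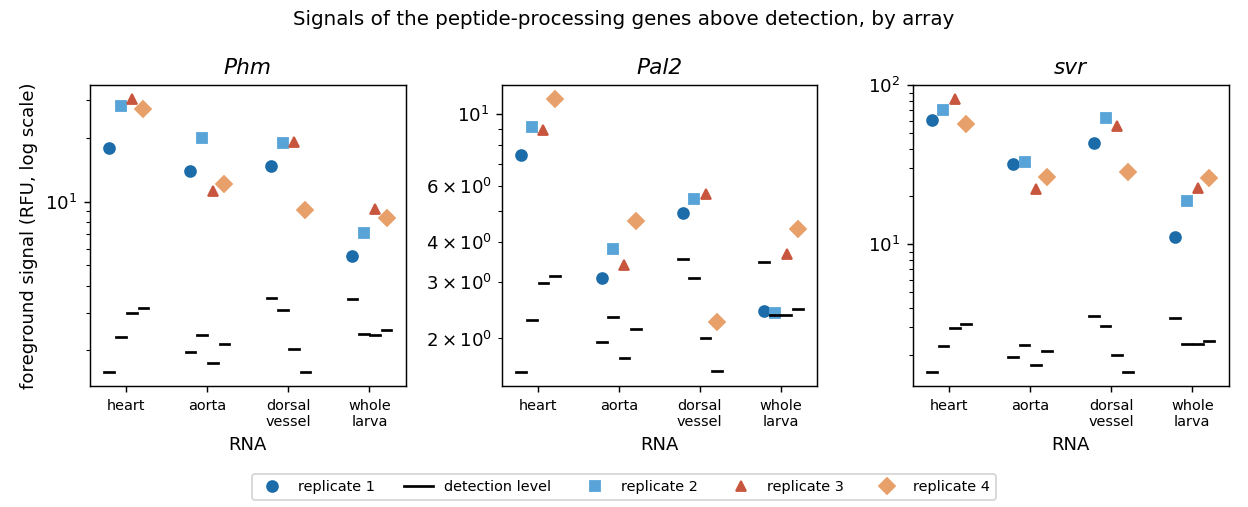
Foreground signal in RFU (log scale, a scale of its own in each panel) of Phm, Pal2 and svr on each array for heart, aorta, dorsal vessel and whole larva; black ticks are the detection level of that channel. All heart values of Pal2 and svr lie above all aorta values, and svr in dorsal vessel (28.3 to 62.2 RFU) lies above whole larva (11.2 to 26.1 RFU).

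Phm gave 14.8, 19.0, 19.2 and 9.09 RFU in dorsal vessel and 5.57, 7.13, 9.21 and 8.41 RFU in whole larva, the groups meeting only where dorsal vessel replicate 4 fell just under whole larva replicate 3. Its log2 ratios of 0.78, 1.07, 0.59 and 0.73 were positive on every array. Phm was 1.73-fold higher in dorsal vessel (log2 ratio 0.79, SE 0.13, adjusted p = 0.00489), and it passed under all 17 alternatives, with log2 ratios from 0.21 to 0.99.

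Pal2 was weaker, at 4.93, 5.46, 5.63 and 2.25 RFU in dorsal vessel and 2.44, 2.40, 3.68 and 4.38 RFU in whole larva. These groups overlapped, through the low dorsal vessel value of replicate 4. Within arrays the log2 ratios were 0.56, 0.71, 0.30 and 0.12, and Pal2 was 1.34-fold higher in dorsal vessel (log2 ratio 0.42, SE 0.11, adjusted p = 0.0234). Its second oligonucleotide had the same sign on 4 of 4 arrays but did not pass (0.26, SE 0.12, adjusted p = 0.107). The call was lost without replicate 1, 2 or 3 (adjusted p = 0.0635, 0.103 and 0.0743), with no background correction (adjusted p = 0.0584) and with median centring (adjusted p = 0.204).

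The brightest of the 4 svr oligonucleotides gave 43.4, 62.2, 55.6 and 28.3 RFU in dorsal vessel and 11.2, 18.8, 22.5 and 26.1 RFU in whole larva, with no overlap. It was 2.02-fold higher in dorsal vessel (log2 ratio 1.02, SE 0.16, adjusted p = 0.00386), from log2 ratios of 1.42, 1.43, 0.69 and 0.53. Per the files, this oligonucleotide matches 2 of 7 annotated svr transcripts, and the other 3 match 5 of 7 each. One of those 3 was above detection in both RNAs, with log2 ratios of -0.31, -0.09, -0.52 and -0.19 (fitted -0.28, SE 0.11, adjusted p = 0.0818). On every array the ratio of the brightest oligonucleotide exceeded that of this one, by 1.73, 1.52, 1.21 and 0.72 on the log2 scale, with a mean difference of 1.29 (SD 0.44, n = 4; exact sign-flip test, two-sided, p = 0.125, the smallest p that 4 arrays allow). Over the mean of the 4 oligonucleotides svr did not pass (0.22, adjusted p = 0.105).

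**Figure D4:**
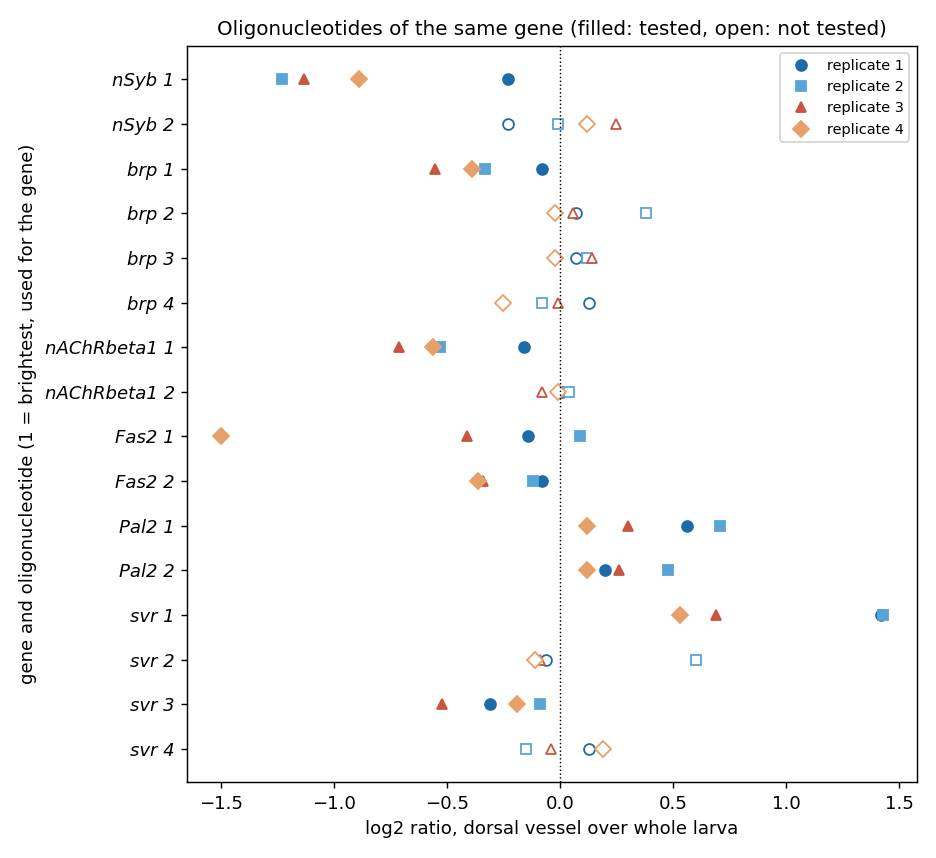
Log2 ratio of dorsal vessel over whole larva on each array (points) for every oligonucleotide of 6 genes that have several, with 1 the brightest; filled points were tested and open points were not. The first svr oligonucleotide lies at 0.53 to 1.43 and the third below 0 on all 4 arrays, while both Pal2 oligonucleotides lie above 0.

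Beside these values, the 9 markers of the central nervous system summed to 9.24 to 20.2 RFU in dorsal vessel and 25.9 to 29.3 RFU in whole larva. Such sums are of foreground signal and include background, also that of genes below detection. The median gene spot read 1.22 to 2.44 RFU by channel in dorsal vessel and 2.13 to 2.47 RFU in whole larva. In dorsal vessel 8 of the 9 (nSyb, brp, Syt1, Syn, para, ChAT, VGlut and Gad1) were above detection on 0 arrays, and in whole larva 5 (Syn, para, ChAT, VGlut and Gad1) were. All 4 salivary gland markers were detected in both RNAs, summing to 43.5 to 280 RFU in dorsal vessel and 2260 to 3330 RFU in whole larva, and fat body markers to 25.6 to 93.8 and 591 to 1950 RFU. Of 12 heart and contractile markers, 11 were tested, and 4 did not pass (median 0.20). Higher in dorsal vessel were 5, all of cardiac transcription factors (tin, Hand, mid, H15 and pnr). The muscle genes Mhc and Tm1, 2 in number, were higher in whole larva. Over all genes tested, 14.1% passed toward dorsal vessel and 21.7% toward whole larva. The call on tin was lost without replicate 2, 3 or 4, and those on mid and Tm1 without replicate 1, 2 or 3. Sums of the 12 markers overlapped, at 1240 to 2180 RFU in dorsal vessel and 1220 to 2050 RFU in whole larva, and tup was above detection on 0 arrays. Hand was 47.2-fold higher in dorsal vessel than in whole larva (log2 ratio 5.56, SE 0.33, adjusted p = 5.97e-05). The part of the tissue makeup of whole larva in these ratios was not tested.

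Between heart and aorta few of these genes differed. Ratios are log2 of heart over aorta, n = 4 arrays, adjusted over 5884 genes tested. Of 15 members tested, 2 passed toward heart, 0 passed toward aorta and 13 did not pass, while 1.85% of all genes passed toward heart and 0.731% toward aorta (2.58% in all). Before adjustment, the members with p under 0.05 in limma also included Fas2 and Phm. The median of the 15 was 0.13, beside 0.00 over all genes. Detection in both RNAs held for 9 of the 15, the 2 called among them, and 6 entered through heart alone.

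**Figure D5:**
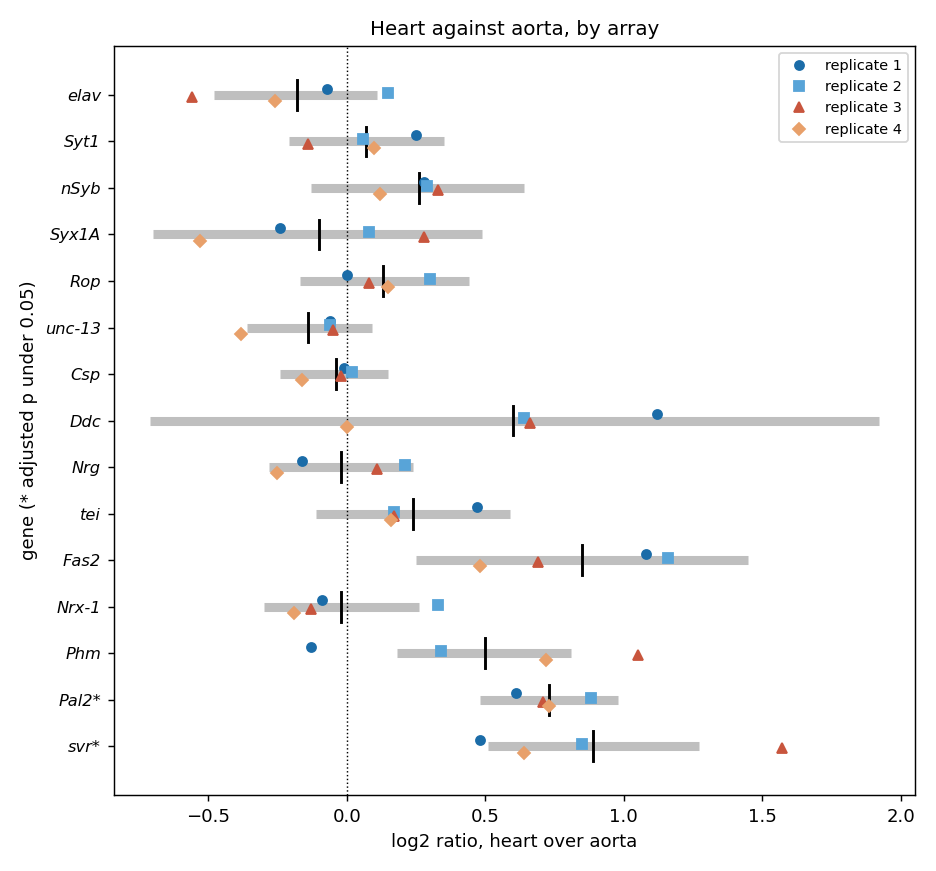
Log2 ratio of heart over aorta on each of 4 arrays (points) for the 15 members tested, with the fitted value (black line) and its 95% confidence interval (grey bar); a star marks an adjusted p under 0.05. Pal2 and svr, the starred genes, and Fas2, nSyb and tei lie above 0 on all 4 arrays.

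Both genes that passed process peptides. Pal2 gave 7.49, 9.15, 8.96 and 11.2 RFU in heart and 3.08, 3.79, 3.38 and 4.64 RFU in aorta, and the groups did not overlap. Its log2 ratios were 0.61, 0.88, 0.71 and 0.73, all positive, and heart exceeded aorta 1.66-fold (fitted 0.73, SE 0.11, adjusted p = 0.0207). The second Pal2 oligonucleotide had ratios of 0.50, 0.81, 0.66 and 0.30 (fitted 0.57, SE 0.11, adjusted p = 0.0534). Pal2 lost its call whichever single replicate was left out (adjusted p = 0.0532 to 0.101), and without replicates 1 and 3 it stood at 0.81 (adjusted p = 0.176). Of 18 alternatives, Pal2 passed under 10 and svr under 9.

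The brightest svr oligonucleotide gave 60.4, 70.4, 82.5 and 57.3 RFU in heart and 32.0, 32.8, 22.2 and 26.6 RFU in aorta, again with no overlap. Heart exceeded aorta 1.85-fold (fitted 0.89, SE 0.16, adjusted p = 0.0395), from log2 ratios of 0.48, 0.85, 1.57 and 0.64. The svr oligonucleotide that matches 5 of 7 transcripts and was detected in both RNAs gave -0.02, 0.10, 0.39 and -0.02 (fitted 0.11, SE 0.11, adjusted p = 0.609), lower than the brightest on 4 of 4 arrays by a mean of 0.77 (SD 0.29; exact sign-flip test, two-sided, p = 0.125). The svr call was lost without replicate 1, 2 or 3 (adjusted p = 0.119, 0.197 and 0.0957), and without replicates 1 and 3 the ratio was 0.75 (adjusted p = 0.287). Phm gave 17.9, 28.2, 30.6 and 27.3 RFU in heart and 14.0, 20.0, 11.2 and 12.1 RFU in aorta, overlapping through heart replicate 1. Its log2 ratios of -0.13, 0.34, 1.05 and 0.72 did not pass (fitted 0.50, interval 0.18 to 0.81 before adjustment, adjusted p = 0.103; 0.53 and adjusted p = 0.274 without replicates 1 and 3).

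Markers of plasmatocytes and crystal cells, the circulating and sessile blood cells, also leaned toward heart in this comparison. Of 6 tested, 4 were higher in heart (Hml, Pxn, PPO1 and PPO2), with a median log2 ratio of 1.44, and the 7 markers summed to 565 to 1230 RFU in heart and 99.4 to 182 RFU in aorta, with lz at 0 arrays in both and NimC1 in aorta. Hml lost its call whichever single replicate was left out (adjusted p = 0.0631 to 0.136). Without replicates 1 and 3 the calls on Hml, Pxn and PPO1 were lost, while PPO2 passed under all 18 alternatives. Against whole larva, where Pal2 and svr were higher in dorsal vessel, 5 of these markers were tested. There 0 were higher in dorsal vessel and 1 in whole larva (median -0.18). The part of blood cells in the Pal2 and svr ratios was not tested. Markers of the ring gland and corpora cardiaca, which touch the aorta, summed to 9.78 to 17.3 RFU in heart and 7.67 to 13.9 RFU in aorta, background included. Of the 7, 5 (phtm, dib, sad, nvd and jhamt) were above detection on 0 arrays in both. The other 2, spok and Akh, were detected in both heart and aorta. Neither passed between them (median log2 ratio 0.08).

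The other members bright enough to be read in the cardiac tube did not pass between its ends. Fas2 had the largest of their ratios, at 20.0, 17.8, 17.8 and 12.9 RFU in heart and 5.82, 6.17, 8.15 and 6.69 RFU in aorta, with no overlap. Its log2 ratios were 1.08, 1.16, 0.69 and 0.48 (fitted 0.85, SE 0.26, adjusted p = 0.123), and with a dye effect of its own for each comparison it passed (adjusted p = 0.0418). Without replicates 1 and 3 it was at 0.82 (adjusted p = 0.461). The second Fas2 oligonucleotide, which matches 3 of 3 transcripts where the brightest matches 1, was at 0.07 (SE 0.10, adjusted p = 0.748). Ddc, which passed the detection level on 4 heart channels and 1 aorta channel, read 7.21, 4.28, 5.29 and 7.47 RFU in heart and 1.87, 1.75, 1.52 and 5.59 RFU in aorta. Those groups overlapped through aorta replicate 4, and the log2 ratios of 1.12, 0.64, 0.66 and 0.00 did not pass (fitted 0.60, SE 0.56, adjusted p = 0.599).

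The pan-neuronal gene elav was detected on all 4 arrays at both ends of the tube. It gave 5.78, 5.04, 5.29 and 3.70 RFU in heart and 4.45, 4.21, 7.19 and 3.53 RFU in aorta, in overlapping groups. The log2 ratios were -0.07, 0.15, -0.56 and -0.26 (fitted -0.18, interval -0.48 to 0.11, adjusted p = 0.466). Nrg, at 3.57, 4.09, 3.85 and 3.91 RFU in heart and 3.30, 3.19, 2.27 and 3.72 RFU in aorta, overlapped too (fitted -0.02, interval -0.28 to 0.24, adjusted p = 0.945).

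Syx1A was the brightest of the release genes relative to detection, at 24.0, 35.8, 31.2 and 24.7 RFU in heart and 21.0, 30.3, 21.2 and 27.6 RFU in aorta. Its log2 ratios of -0.24, 0.08, 0.28 and -0.53 straddled 0 (fitted -0.10, interval -0.70 to 0.49, adjusted p = 0.885). For unc-13, at 3.39, 2.64, 3.30 and 2.71 RFU in heart and 2.86, 3.29, 2.50 and 2.90 RFU in aorta, the fitted ratio was -0.14 (interval -0.36 to 0.09, adjusted p = 0.469). Entry was through heart alone for nSyb (0.28, 0.29, 0.33 and 0.12 by array, fitted 0.26, adjusted p = 0.428), Syt1 (fitted 0.07, adjusted p = 0.812) and Rop (fitted 0.13, adjusted p = 0.623), and none of these 3 passed. Csp (fitted -0.04, adjusted p = 0.826) and Nrx-1 (fitted -0.02, adjusted p = 0.96) lay close to 0 at signals of 1.74 to 3.01 RFU, and tei (fitted 0.24, adjusted p = 0.41) passed the detection level on 3 heart channels and 0 aorta channels.

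Lists of related genes gave further context for the members, in counts read against the 21.7% and 14.1% of all genes that passed toward whole larva and dorsal vessel. They too entered the test by detection in either RNA. Some entered through whole larva alone, such as Syt4, above detection on 0 arrays in dorsal vessel and 4 in whole larva. Others entered through dorsal vessel alone, such as nAChRbeta3 (3 and 0). Such entry largely set their direction, and the counts were not split by it. Of 24 genes of the neuronal cytoskeleton, adhesion and RNA binding, 16 were tested, and 11 were higher in whole larva, 1 in dorsal vessel and 4 did not pass (median -0.58). Among them Lac, of a septate junction protein, was 8.97-fold higher in whole larva (log2 ratio -3.17, adjusted p = 0.00336), and Fas3, an adhesion protein gene, had log2 ratios of -0.86, -0.82, -1.33 and -0.98 (adjusted p = 0.00105). Appl, of the amyloid precursor protein-like protein of neurons, was at -0.91 (adjusted p = 0.00896), and stai, of stathmin, at -0.82 (adjusted p = 0.0114).

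Of 18 glial genes 9 were tested, with 5 higher in whole larva, 2 in dorsal vessel and 2 not past the test (median -0.69). The septate junction genes Cont (log2 ratio -1.51, adjusted p = 0.000319) and Nrx-IV (-1.35, adjusted p = 0.0021), which epithelia also use, and Gs2, of glutamine synthetase (-3.01, adjusted p = 0.00147), were higher in whole larva, while the gene Swim was higher in dorsal vessel (0.73, adjusted p = 0.0029). Among amine genes, 10 of 22 were tested, with 5 higher in whole larva and 1 in dorsal vessel. Hn, of phenylalanine hydroxylase, was 30.9-fold higher in whole larva (-4.95, adjusted p = 6.74e-05) and speck, of an acetyltransferase of amines, 2.87-fold (-1.52, adjusted p = 0.00167), with the dopamine receptor gene Dop2R (-0.38, adjusted p = 0.0185) and the pteridine synthesis gene Pu (-1.88, adjusted p = 0.0416) in the same direction. The calls on Pu and Dop2R were lost without replicate 2, 3 or 4, and Pu stood at -1.02 without replicate 4 (adjusted p = 0.108).

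Neuropeptide genes moved in both directions. Of 36 listed genes, 19 were tested, with 9 higher in whole larva, 2 in dorsal vessel and 8 not past the test (median -0.50). The ecdysis triggering hormone gene ETH was 2.18-fold higher in whole larva (-1.12, adjusted p = 0.0014), and the allatostatin gene AstA (-0.82, adjusted p = 0.0023), Nplp4 (-1.83, adjusted p = 0.00324) and FMRFa (-0.73, adjusted p = 0.00416) went with it. The 2 higher in dorsal vessel, singled out after their values were seen, were ITP, of ion transport peptide (2.19, adjusted p = 0.00433), and Nplp2 (1.45, adjusted p = 0.00738). Between heart and aorta 1 of 10 passed, the myosuppressin gene Ms (4.66, SE 0.64, adjusted p = 0.0169), positive on 4 of 4 arrays. Ms lost its call whichever single replicate was left out (adjusted p = 0.0532 to 0.0938) and without replicates 1 and 3 (4.76, adjusted p = 0.163).

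The other presynaptic and the postsynaptic genes were split. Of 15 other presynaptic genes tested, 4 were higher in whole larva, 3 in dorsal vessel and 8 did not pass (median 0.12). The endocytic genes lap, of the clathrin adaptor AP180 (2.54, adjusted p = 0.00142), and Synj, of synaptojanin (1.00, adjusted p = 0.0045), were higher in dorsal vessel, and the active zone gene RhoGAP100F, also known as Syd-1 (-2.05, adjusted p = 0.00223), and Syt4 (-0.61, adjusted p = 0.00773) were higher in whole larva. Of 11 postsynaptic and neuromuscular genes tested, 5 were higher in dorsal vessel, 2 in whole larva and 4 did not pass (median 0.33). The muscle glutamate receptor subunits GluRIID (1.35, adjusted p = 0.000783) and GluRIIA (0.47, adjusted p = 0.0121) and the BMP ligand gene gbb (0.66, adjusted p = 0.00704) were higher in dorsal vessel, and the phosphodiesterase gene dnc (-0.71, adjusted p = 0.00689) in whole larva.

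Of 5 other acetylcholine receptor and esterase genes tested, nAChRbeta3 was higher in dorsal vessel (0.72, adjusted p = 0.0149) and the acetylcholinesterase gene Ace in whole larva (-0.59, adjusted p = 0.0262, lost without replicate 2, 3 or 4), and 3 did not pass. Of 6 ion channel genes tested, the calcium channel gene cac was higher in whole larva (-0.27, adjusted p = 0.0422, lost whichever single replicate was left out) and 5 did not pass. Between heart and aorta the potassium channel gene Shaw was higher in heart (0.77, SE 0.08, adjusted p = 0.00634), on arrays at 0.84, 0.80, 0.69 and 0.76 (without replicates 1 and 3, 0.78 and adjusted p = 0.147), and the other 5 ion channel genes tested did not pass. No gene passed between heart and aorta in the other 6 lists, where limma's smallest p before adjustment was 0.00214, for stai (-0.80, adjusted p = 0.0632).

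The 3 nrv genes, subunits of the sodium pump, were read apart because the list's name fitted none of them alone. Against whole larva nrv1 was higher in dorsal vessel (0.46, SE 0.13, adjusted p = 0.0317, lost without replicate 1, 2 or 3), nrv3, known from neurons, was higher in whole larva (-1.16, SE 0.12, adjusted p = 0.000676), and nrv2 did not pass (-0.34, SE 0.41, adjusted p = 0.515).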

How the data were processed

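The deposited spot files hold, per the file headers, foreground and local background intensity values in RFU for both dyes on 8 arrays, made by the authors' scanner software. The deposited value table holds log2 ratios normalised by the authors, with limma named in the submitters' processing notes (version not given), with aorta over heart in one comparison and, in the other, dorsal vessel over whole larva. It served as an alternative.

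Intensities were scaled by 36.9 to a 16-bit range, corrected with normexp (offset 50, or 1.35 RFU) and normalised by loess (span 0.3, 4 iterations) in limma 3.58.1 (R 4.3.3). Controls and marked spots had weight 0. Repeated spots were averaged, and the oligonucleotide with the highest mean signal represented its gene. Genes were tested if detected on at least 2 of 4 arrays in at least 1 RNA. All 8 arrays were fitted with 1 coefficient for each comparison and a shared dye effect (5 residual degrees of freedom), with Benjamini-Hochberg adjustment. The number of arrays limits the precision. The ratio within an array pairs the pools of a replicate. Where a member was above detection on 0 arrays of an RNA, its fold was also taken with that RNA raised, where lower, to the lowest detected signal of each array. This changed none of the folds, so the step could not set a lower limit. The folds given are fitted values, and near background they understate differences. The steps were tested on simulated data.

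The members and lists were chosen with earlier results of these data known, so no list was tested. Every member is named. Detailed values are given for those that passed or were detected on all 4 arrays of an RNA, and from each list at most 4 genes for each comparison by smallest adjusted p, with ITP, Nplp2, Pal1, Fur1, nrv1 to nrv3 and the markers named beside these, chosen after their values were seen. Gene names came from a RefSeq table, with symbols such as ChAT for Cha and Cadps for Caps. Probes were not realigned.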

Additional observations from a re-analysis of the deposited data

Results flagged for a closer look

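Among 33 sets of 4 arrays of the members tested, 2 had an array that stood apart by Dixon's criterion, which marks about 1 in 20 by chance. For heart over aorta, unc-13 was at -0.38 on replicate 4 and between -0.06 and -0.05 on the other 3 arrays. For tei, replicate 1 gave 0.47 and the others 0.16 to 0.17. Neither gene passed the test between heart and aorta.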

How the results depend on the processing

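No member called in either comparison changed direction, but calls between heart and aorta rested on few settings. The count of members higher in heart, 2 as reported, was 1 with an offset of 50 RFU, the deposited table, no detection filter or the mean of all oligonucleotides, and 0 with median centring, with the comparison's own 4 arrays alone, or without heart against aorta replicates 1 and 3 (chosen after seeing the data). It was 0 to 1 without single replicates. The members' median was 0.34 with no background correction and 0.26 with the deposited table. Genes of the whole array higher in heart and in aorta numbered 109 and 43, against 37 and 23 with an offset of 50 RFU, 49 and 21 with no filter, 229 and 221 with a dye effect for each comparison, 6 and 2 with its own 4 arrays, and 4 and 4 without replicates 1 and 3. Aorta calls were 8 with median centring. Leaving out 1 replicate gave 20 to 54 toward heart and 7 to 41 toward aorta.

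Between dorsal vessel and whole larva, leaving out 1 replicate gave 2 to 3 members higher in dorsal vessel and 4 to 8 in whole larva, beside 490 to 695 and 812 to 1381 of all genes. Whole larva calls over all genes were 921 with an offset of 50 RFU and 997 with median centring. The members' median was -0.70 with no background correction, -0.02 with an offset of 50 RFU, -0.64 with the deposited table, -0.49 with detection above the 99th percentile and -0.17 with the mean of oligonucleotides. Snap25 and brp also missed the test with an offset of 50 RFU and with the comparison's own 4 arrays. The cause of these shifts was not tested.

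Each array pairs the pools of a replicate. With channels fitted separately and no replicate block, the counts of members were 2 and 0 between heart and aorta (median 0.13) and 4 and 9 between dorsal vessel and whole larva (median -0.33), and no member's call changed. Low signal over background limits most of the members: 17 of 37 could not be tested by their brightest oligonucleotide, and ratios near background understate differences.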
